A study of Mus musculus with 10 samples.

Results

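The comparison described here is the effect of H2BE, a variant of histone H2B, on gene expression in cultured cortical neurons that had been given BDNF. It sets H2BE+BDNF replicates 2 and 3 against BDNF replicates 1 and 2, which are 4 of the 10 libraries of the study, and covers every gene with enough counts to test. All cultures were wild-type neurons from cortices of C57BL/6J mouse embryos at E16.5 (the study's design text says E16), kept in 0.5 µM AraC, an inhibitor of DNA synthesis that removes dividing cells, from 3 to 4 days in vitro. The BDNF group carried a control lentivirus and received BDNF, and the H2BE+BDNF group carried a lentivirus that expresses H2BE from a constitutively active promoter and received BDNF. The Control and H2BE groups carried the same viruses and were left unstimulated. PolyA RNA was taken 24 h after BDNF was added, and no dose of BDNF is stated in the labels. The virus gives expression in any cell it enters and at any time, so these cultures model forced expression of the variant rather than its own regulation.

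Histone variants replace the canonical histones in nucleosomes and are made outside S phase, so they can accumulate in cells that no longer divide. H2BE is encoded by H2bc21 and differs from canonical H2B at a few residues. It is known from olfactory and cortical neurons, where it has been linked to chromatin accessibility and synaptic gene expression. BDNF is a secreted neurotrophin that binds the receptor TrkB, activates the ERK, PI3K and phospholipase C pathways and changes transcription in neurons, first of immediate-early genes and later of genes for synapses, peptides and metabolism.

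The BDNF libraries held 11730663 (replicate 1) and 12472505 (replicate 2) counts and the H2BE+BDNF libraries 8357276 (replicate 2) and 6970221 (replicate 3). BDNF replicate 3 was not used, because it exceeded BDNF replicate 1 at 0 genes, and Control replicate 3 stood in the same relation to Control replicate 1. The labels do not say whether replicates came from separate cultures, so each p-value reflects the spread among these libraries alone, which may be technical. A count of 3, taken as the limit of detection, equals 0.257, 0.244, 0.359 and 0.432 CPM (counts scaled to the library total) in these libraries in the same order. BDNF replicate 2 stood apart. Among genes over 20 CPM, the log2 difference between the BDNF libraries had an SD of 0.164, against 0.127 between the H2BE+BDNF libraries, 0.125 in Control and 0.138 in H2BE. On the third principal component (10.3% of variance) BDNF replicate 2 lay at -23.63, BDNF replicate 1 at -1.33 and the H2BE+BDNF libraries at 9.14 and 17.54.

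H2bc21, the gene the virus carries, was higher in both H2BE+BDNF libraries. It (chromosome 3, 96221119 to 96223738, mm10, plus strand) was at 3.69 and 4.07 CPM in the BDNF libraries and at 32.1 and 35.2 CPM in the H2BE+BDNF libraries. Every library with the H2BE virus was above every library without it. The rise was 3.11 on the log2 scale (SE 0.15, 95% interval 2.78 to 3.43, edgeR adjusted p = 1.51e-08), or 8.61-fold. Unstimulated cultures had 5.19 and 5.24 CPM with the control virus and 42.9 and 35.7 CPM with the H2BE virus, and the difference between the 2 effects was 0.18 (SE 0.24, 95% interval -0.32 to 0.68, edgeR adjusted p = 0.76). Reads from the viral transcript and from the endogenous gene cannot be told apart in these counts, and H2B genes are similar in sequence.

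In BDNF-treated neurons very few other genes passed the test. Of 13452 genes tested, 3 were called at an edgeR adjusted p under 0.05 (0.0223%), 2 of them higher (0.0149%) and 1 lower (0.00743%) with H2BE. Besides H2bc21 these were Cntn6, which rose, and Cort, which fell. At an unadjusted p under 0.05 there were 1533 genes (11.4%), 636 higher (4.73%) and 897 lower (6.67%). DESeq2 called 10 genes. The plot of all tested genes shows this: H2bc21 lies alone, and the spread of the rest narrows with the level.

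**Figure D1:**
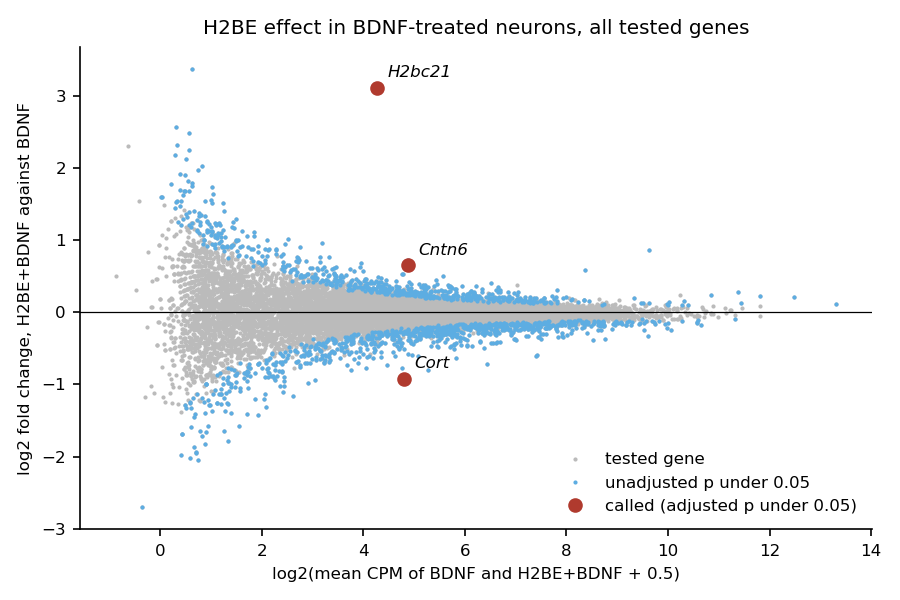
Log2 fold change of H2BE+BDNF against BDNF (vertical axis) for each of 13452 tested genes against its mean level (log2 of mean CPM + 0.5, horizontal axis). Blue points have an unadjusted p under 0.05, and the 3 red points, H2bc21, Cntn6 and Cort, passed the adjusted threshold.

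Cntn6 encodes contactin 6 (NB-3), an immunoglobulin-family adhesion protein of axons and synapses. It lies on chromosome 6 from 104492790 to 104863406 (mm10, plus strand). It was at 22.8 and 21.9 CPM in the BDNF libraries and at 33.6 and 36.9 CPM in the H2BE+BDNF libraries, so the groups did not overlap. The rise was 0.65 on the log2 scale (SE 0.10, 95% interval 0.45 to 0.86, edgeR adjusted p = 0.0295), or 1.57-fold. Unstimulated cultures were higher than both, with 53.9 and 53.6 CPM in Control and 56.4 and 57.0 CPM in H2BE, and differed by 0.07 (SE 0.09, edgeR adjusted p = 0.71). The effect of H2BE on Cntn6 was larger with BDNF than without by 0.58 (SE 0.13, edgeR adjusted p = 0.0444). That call of the difference for Cntn6 held without BDNF replicate 1 and was lost without any 1 of the other 7 libraries (0.51 to 0.65, edgeR adjusted p 0.0541 to 0.29), after thinning (0.11) and with transcript length and GC corrected (0.52, edgeR adjusted p = 0.22). With H2BE, Cntn6 in BDNF-treated neurons thus lay between the BDNF and the unstimulated levels. The call was lost without H2BE+BDNF replicate 3 (log2 fold change 0.59, edgeR adjusted p = 0.44) and without H2BE+BDNF replicate 2 (0.72, edgeR adjusted p = 0.0896), and it held without BDNF replicate 2 (0.62, edgeR adjusted p = 0.0343). Leaving out Control replicate 1 or 2, or H2BE replicate 2 or 3, which enter only through the shared estimate of the spread, gave edgeR adjusted p-values of 0.0595 to 0.0621 for Cntn6.

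Cort encodes cortistatin, a neuropeptide related to somatostatin that is made by a subset of cortical interneurons. It lies on chromosome 4 from 149125034 to 149126763 (mm10, minus strand). It was at 30.0 and 41.4 CPM in the BDNF libraries and at 19.8 and 18.02 CPM in the H2BE+BDNF libraries. The latter were close to Control, at 19.1 ± 1.29 CPM (SD, n = 2), while H2BE had 14.4 and 16.1 CPM. The fall with BDNF present was 0.92 on the log2 scale (log2 fold change -0.92, SE 0.14, 95% interval -1.23 to -0.61, edgeR adjusted p = 0.0489). Without BDNF the difference was -0.35 (SE 0.17, edgeR adjusted p = 0.30), and the difference of the effects, -0.57 (SE 0.23), did not pass (edgeR adjusted p = 0.23). The BDNF libraries themselves differed at this gene, and without BDNF replicate 2 the value was -0.67 (edgeR adjusted p = 0.0619). Without H2BE+BDNF replicate 2 or 3 the adjusted p was 0.17 and 0.44 (edgeR). Leaving out 1 Control or 1 H2BE library gave edgeR adjusted p-values of 0.0616 to 0.0702 for Cort.

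Just outside the threshold, at an edgeR adjusted p of 0.0689, were 4 genes. Sst, the gene for somatostatin, was at 498 and 483 CPM in BDNF and at 407 and 354 CPM in H2BE+BDNF (log2 fold change -0.36, SE 0.06). Slc7a1, a transporter of cationic amino acids, was at 272 and 264 CPM against 209 and 216 CPM (-0.33, SE 0.06). Clic4, a chloride intracellular channel protein, was at 112 and 123 CPM against 88.2 and 88.9 CPM (-0.41, SE 0.07). In these 3 genes both H2BE+BDNF libraries were below both BDNF libraries. ND2, a respiratory complex I subunit encoded in the mitochondrial genome, was higher in both, at 2872 and 2919 CPM against 2302 and 2482 CPM (0.28, SE 0.05). Sst, Slc7a1 and ND2 passed in DESeq2. In the 4 BDNF-treated libraries alone neither Sst nor ND2 passed (edgeR adjusted p = 0.38 for each). With transcript length and GC corrected ND2 was at 0.20 (edgeR adjusted p = 0.16), while Sst passed (-0.415, edgeR adjusted p = 0.0287). Without H2BE+BDNF replicate 3 the values were -0.27 for Sst and 0.26 for ND2. Without BDNF, Sst was also lower with H2BE, at 466 and 490 CPM against 656 and 606 CPM in Control (-0.40, SE 0.06, edgeR adjusted p = 0.00828), and the effects with and without BDNF differed by 0.04 (95% interval -0.15 to 0.23).

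**Figure D2:**
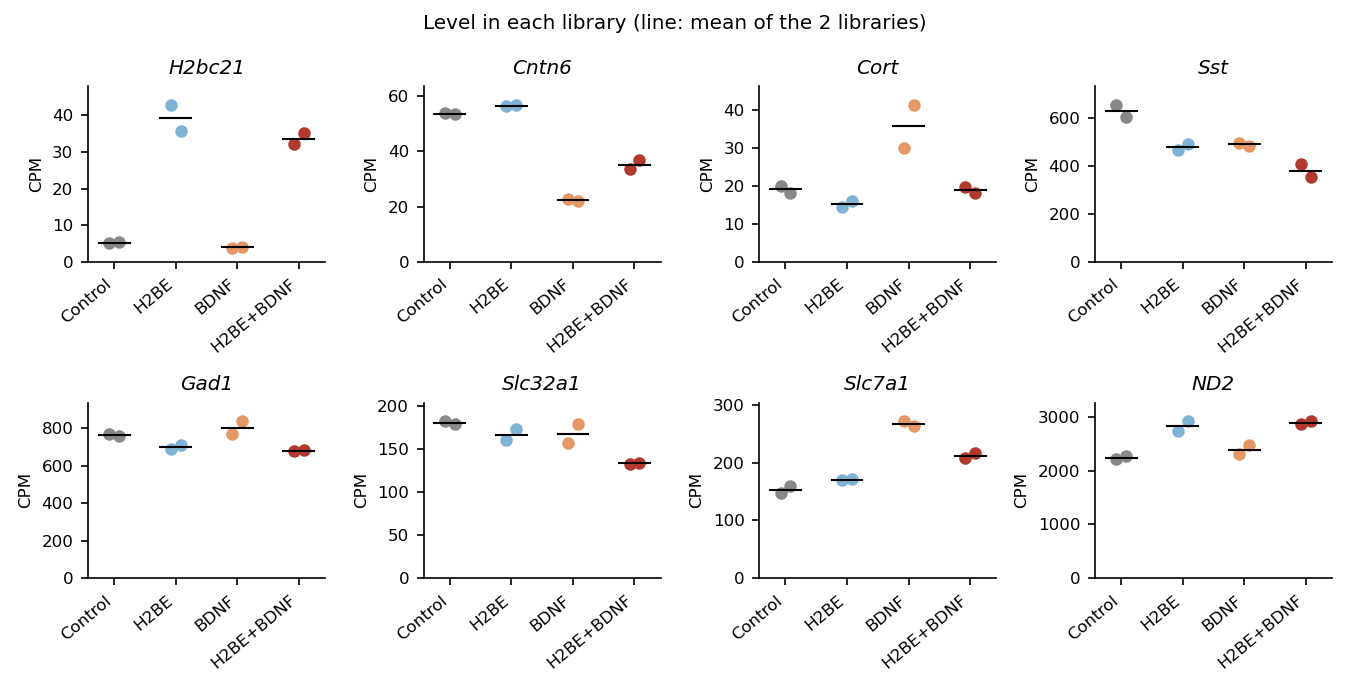
CPM (vertical axis, from 0) of 8 genes in each of the 8 libraries, as points by group, with the group mean as a line. H2bc21 separates the virus groups, Cntn6 in H2BE+BDNF lies between BDNF and the unstimulated groups, and Cort in H2BE+BDNF lies near Control.

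Genes of inhibitory neurons were mostly below their BDNF level when H2BE was present. Of 13 interneuron markers tested, 0 were called, 11 had a log2 fold change below 0 and 2 above. In 8 the 2 groups did not overlap with H2BE+BDNF lower, against 21.3% of all tested genes. In 2 they did not overlap with it higher, against 19.6%. The median was -0.17, beside -0.01 over all tested genes, and in unstimulated neurons it was -0.12. Gad1, which makes GABA from glutamate, was at 768 and 838 CPM against 677 and 683 CPM (log2 fold change -0.24, SE 0.05, edgeR adjusted p = 0.13). Slc32a1, the vesicular GABA transporter, was at 156 and 178 CPM against 132 and 134 CPM (-0.33, SE 0.07, edgeR adjusted p = 0.13). Both genes lay lower in each H2BE+BDNF library than in any other of the 8 libraries.

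Erbb4, a neuregulin receptor of interneurons, was at 161 and 252 CPM in BDNF and at 144 and 130 CPM in H2BE+BDNF (log2 fold change -0.59, SE 0.14), and without BDNF replicate 2 the value was -0.23. The summed level of the 13 interneuron markers was 2283 and 2512 CPM in BDNF, 2053 and 1970 CPM in H2BE+BDNF, 2468 and 2397 CPM in Control and 2108 and 2197 CPM in H2BE. Without BDNF replicate 2 the median of the list was -0.13. In bulk RNA, fewer interneurons and less RNA per interneuron cannot be told apart.

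Among 22 genes for GABA synthesis, transport and receptors 14 were below 0 and 0 were called (median -0.09). Slc6a11, a transporter that takes up GABA, was at 21.03 and 26.8 CPM against 15.8 and 15.4 CPM (log2 fold change -0.62, SE 0.14, edgeR adjusted p = 0.15). Without BDNF replicate 2 the median of the list was 0.03, so its sign turned on that library.

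Markers of excitatory cortical neurons mostly lay the other way. Of 10 tested, 7 were above 0, 3 were below and 0 were called (median 0.08). In 5 the groups did not overlap with H2BE+BDNF higher and in 1 with it lower, against 19.6% and 21.3% of all tested genes. Their summed level was 1016 and 996 CPM in BDNF against 1112 and 1070 CPM in H2BE+BDNF. In unstimulated neurons the median was 0.17, and the summed level was 1140 and 1115 CPM in Control against 1263 and 1286 CPM in H2BE. Slc17a7, the vesicular glutamate transporter VGLUT1, was at 224 and 175 CPM against 250 and 244 CPM (log2 fold change 0.31, SE 0.08, edgeR adjusted p = 0.21). The BDNF libraries themselves differed at Slc17a7, and without BDNF replicate 1 the value was 0.50. Neurod6, a transcription factor of projection neurons, was at 96.4 and 103 CPM against 120 and 107 CPM (0.19, SE 0.08, edgeR adjusted p = 0.38).

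Other cell types that such cultures can hold were checked by their markers. Of 11 astrocyte markers tested 9 were below 0 and 8 did not overlap with H2BE+BDNF lower, against 21.3% of all tested genes, with a median of -0.32 and 0 called. Apoe, a lipid carrier of astrocytes, was at 71.0 and 80.6 CPM against 55.8 and 54.5 CPM (log2 fold change -0.46, SE 0.13), and the water channel Aqp4 was at 5.41 and 6.998 CPM against 3.71 and 2.31 CPM (-1.02, SE 0.29). The summed astrocyte level was 610 and 606 CPM in BDNF against 580 and 571 CPM in H2BE+BDNF, a smaller gap than the median of single genes. The median was -0.23 without BDNF replicate 2 and -0.51 without BDNF replicate 1.

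Oligodendrocyte lineage markers summed to 335 and 392 CPM against 342 and 326 CPM, with Mag listed at 0 in the BDNF-treated libraries. Microglial markers summed to 27.5 and 28.3 CPM against 26.3 and 23.5 CPM, and markers of endothelial, mural and fibroblast cells to 55.8 and 62.9 CPM against 61.0 and 64.3 CPM, with Cldn5 at 0. Progenitor markers summed to 288 and 293 CPM against 296 and 294 CPM. Of these 4 lists 0 members were called. Their median log2 fold changes were -0.22 for oligodendrocyte lineage, -0.44 for microglial, -0.23 for endothelial, mural and fibroblast and -0.05 for progenitor markers. The oligodendrocyte lineage median was 0.07 without BDNF replicate 2. The endothelial, mural and fibroblast median was 0.05 without H2BE+BDNF replicate 2. The part of these cell types in the gene differences above was not tested.

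Genes of the BDNF response were examined next, with 0.0223% of all tested genes called, so that 0 calls in a list of this size is no sign of similarity. Of 23 immediate-early genes 0 were called and 16 were below 0, with a median of -0.10 that was -0.03 without BDNF replicate 2. Fosb, an AP-1 subunit, was at 24.5 and 30.3 CPM in BDNF and at 22.3 and 18.02 CPM in H2BE+BDNF (log2 fold change -0.44, SE 0.14, edgeR adjusted p = 0.28), both far above the 5.83 and 4.72 CPM of Control. Of 19 feedback genes of the ERK pathway 0 were called (median -0.02). Spry4, an inhibitor of receptor tyrosine kinase signalling, was at 81.9 and 97.1 CPM against 68.0 and 67.2 CPM (-0.41, SE 0.09, edgeR adjusted p = 0.13). The secreted peptide Vgf was at 1602 and 1572 CPM against 1428 and 1464 CPM (-0.13, SE 0.04, edgeR adjusted p = 0.28), and Crh, corticotropin-releasing hormone, at 24.7 and 18.8 CPM against 29.7 and 33.0 CPM (0.53, SE 0.14, edgeR adjusted p = 0.21).

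Among 20 neurotrophin receptor and adaptor genes tested 14 were below 0 and 0 were called (median -0.05). Ntrk2, which encodes TrkB, was at 486 and 535 CPM in BDNF and at 440 and 433 CPM in H2BE+BDNF (log2 fold change -0.23, SE 0.05, edgeR adjusted p = 0.16). Without BDNF it was at 619 and 641 CPM in Control and 684 and 677 CPM in H2BE (0.11, SE 0.05, edgeR adjusted p = 0.28). The effect of H2BE on Ntrk2 was thus lower with BDNF by 0.34 on the log2 scale, and this difference passed (log2 -0.34, SE 0.08, edgeR adjusted p = 0.0444). For Ntrk2 the difference was -0.14 with transcript length and GC corrected (edgeR adjusted p = 0.44), and its call was lost without any 1 of the Control, H2BE or H2BE+BDNF libraries (edgeR adjusted p 0.0734 to 0.31). The adaptor Shc3 was at 94.6 and 96.0 CPM against 82.5 and 82.6 CPM with BDNF, and at 46.1 and 47.9 CPM against 65.3 and 61.7 CPM without it. Its effects differed by -0.65 (edgeR adjusted p = 0.0178).

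ATF4 targets and unfolded protein response genes, which handle amino acid shortage and misfolded protein, were below 0 in 22 of 31 cases, with 16 that did not overlap with H2BE+BDNF lower (21.3% among all tested genes), 0 called and a median of -0.10. Sesn2, a stress-induced inhibitor of mTORC1, was at 108 and 100 CPM against 81.5 and 74.2 CPM (log2 fold change -0.42, SE 0.08, edgeR adjusted p = 0.12). The cystine transporter Slc7a11 was at 9.44 and 10.9 CPM against 4.67 and 6.05 CPM (-0.94, SE 0.21, edgeR adjusted p = 0.15), and the serine synthesis enzyme Psat1 at 164 and 183 CPM against 145 and 142 CPM (-0.27, SE 0.07, edgeR adjusted p = 0.18). For Sesn2 and Psat1 both H2BE+BDNF libraries lay between the unstimulated and the BDNF libraries. The list's median was -0.12 without BDNF replicate 2 and -0.09 without BDNF replicate 1. In unstimulated neurons it was -0.07, and the median difference of the effects with and without BDNF was 0.01.

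The medians of synaptic and channel genes lay slightly below 0 with BDNF and above 0 without it. Of 43 potassium channel genes 29 were below 0 and 17 did not overlap with H2BE+BDNF lower, against 21.3% of all tested genes (median -0.12, and 0.11 without BDNF). Without BDNF replicate 2 the median was -0.08 and without H2BE+BDNF replicate 2 it was -0.07. Kcnc2, a fast potassium channel, was at 53.5 and 74.1 CPM against 43.8 and 46.1 CPM (log2 fold change -0.51, SE 0.12, edgeR adjusted p = 0.16). The BDNF libraries themselves differed at Kcnc2, and without BDNF replicate 1 the value was -0.72. Of 41 presynaptic genes 26 were below 0 (median -0.03), and of 38 postsynaptic genes 27 (median -0.04). The medians without BDNF were 0.05 and 0.12. Of 16 ionotropic glutamate receptor genes 11 were below 0 (median -0.07, and 0.12 without BDNF). Without BDNF replicate 2 that median was -0.00405. With transcript length and GC corrected the medians with BDNF were -0.01 for the glutamate receptors, -0.0026 for presynaptic, -0.02 for postsynaptic and -0.11 for potassium channel genes. Leaving out 1 library moved the presynaptic median to between -0.075 (without BDNF replicate 1) and -0.04. No member of these 4 lists was called in BDNF-treated neurons.

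Ribosomal and proteasome genes lay mostly above 0. Of 79 cytosolic ribosomal protein genes 65 were above 0, with 0 called and a median of 0.06, against -0.21 without BDNF. Of 31 proteasome subunit genes 27 were above 0 and 17 did not overlap with H2BE+BDNF higher, against 19.6% of all tested genes (median 0.07, and -0.17 without BDNF). Psma6 was at 107 and 100 CPM against 131 and 121 CPM (log2 fold change 0.28, SE 0.08, edgeR adjusted p = 0.24). Without BDNF replicate 2 the ribosomal median was 0.0034 and the proteasome median 0.04. With transcript length and GC corrected they were 0.01 and 0.03. The 74 nuclear genes of the respiratory chain were split, 35 above and 39 below 0, around a median of 0.00.

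Respiratory chain genes of the mitochondrial genome had a median above 0 in both conditions. Of 8 tested 7 were above 0 and 6 did not overlap with H2BE+BDNF higher, against 19.6% of all tested genes (median 0.17, and 0.23 without BDNF). The median was 0.10 without BDNF replicate 1 and 0.10 with transcript length and GC corrected. ND1 was at 3340 and 3311 CPM against 3827 and 3917 CPM (log2 fold change 0.22, SE 0.04, edgeR adjusted p = 0.12). ND4 was at 1621 and 1731 CPM against 1933 and 2028 CPM (0.24, SE 0.05, edgeR adjusted p = 0.13), and its effect without BDNF was 0.57 (SE 0.05, edgeR adjusted p = 2.81e-05). The effects on ND4 differed by -0.33 (edgeR adjusted p = 0.0417).

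Chromatin genes had 0 calls in each of 5 lists, which the 0.0223% called among all genes would also give. Of 32 other core histone genes matched in the counts 4 had enough counts to test. The H2B genes H2bc4 (15.3 and 18.6 CPM against 14.8 and 14.1 CPM) and H2bc27 (23.9 and 21.2 CPM against 29.3 and 25.7 CPM) had log2 fold changes of -0.22 (SE 0.14) and 0.29 (SE 0.12). The 12 replacement and linker histone genes had a median of 0.01. The medians were -0.03 for 25 genes of H3K4 methylation (0.02 with transcript length and GC corrected), 0.02 for 40 remodellers and histone chaperones and 0.00 for 28 acetyltransferases and deacetylases. Dpy30, a core subunit of the H3K4 methyltransferase complexes, was at 33.3 and 31.1 CPM against 42.2 and 38.0 CPM with BDNF and at 40.1 and 40.7 CPM against 26.2 and 32.6 CPM without it. Its effects differed by 0.80 (edgeR adjusted p = 0.0339), and by 0.52 with transcript length and GC corrected (edgeR adjusted p = 0.29).

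**Figure D3:**
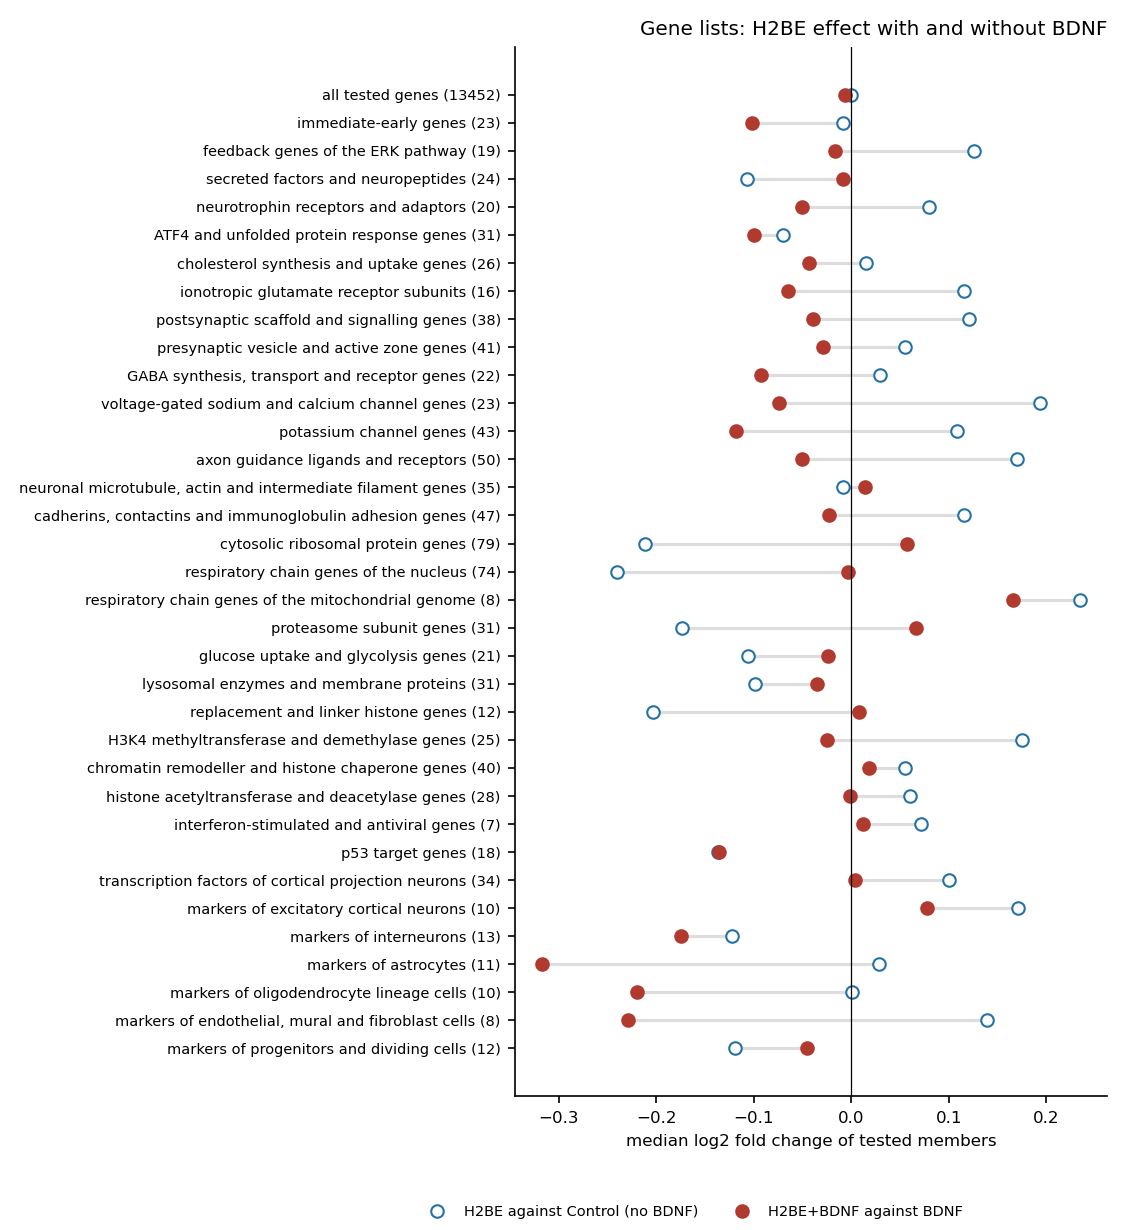
Median log2 fold change (horizontal axis) of the tested members of each gene list, with the number tested in brackets, for lists with at least 5 tested members (microglia, with 5 members near the detection limit, are left out), for H2BE+BDNF against BDNF (filled) and H2BE against Control (open). Interneuron and astrocyte markers lie at -0.17 and -0.32 with BDNF, and oligodendrocyte lineage and endothelial, mural and fibroblast markers at -0.22 and -0.23. Ribosomal and proteasome genes lie on opposite sides of 0 in the 2 conditions.

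The effect of H2BE was then compared with that in unstimulated neurons, which shares no library with it. Without BDNF 287 genes were called (2.13%), 179 higher (1.33%) and 108 lower (0.803%). The difference between the 2 effects was called at 155 genes (1.15%), 44 with a higher effect in BDNF-treated neurons (0.327%) and 111 with a lower one (0.825%). Without Control replicate 1 or without H2BE replicate 2 the count was 0, and without H2BE+BDNF replicate 3 it was 1, so every called difference named here was lost without some library. Across 13452 genes the log2 fold changes with and without BDNF had a Pearson r of 0.09 and a Spearman rho of 0.01, and over 7766 genes above 20 CPM -0.01 and -0.10. Genes are not independent replicates, and all libraries share the scaling. The effects had a smaller spread with BDNF among genes over 100 CPM (SD 0.10 against 0.15), where the median 95% interval reached 0.13 to either side. It reached 0.20 at 20 to 100 CPM and 0.38 at 5 to 20 CPM.

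Of the 178 genes other than H2bc21 that rose with H2BE in unstimulated neurons, 0 were called with BDNF. In BDNF-treated neurons 48 of them were above 0 and 129 below, with a median of -0.06 against 0.34 without BDNF, and the difference of effects was called at 80. Corrected for transcript length and GC content, 54.49% of them were above 0 with BDNF, at a median of 0.005 against 0.20 without, so the side of 0 depended on the correction. Of the 108 genes that fell without BDNF, 63 were above 0 and 45 below with BDNF (median 0.02 against -0.33), and after the same correction 45.37% were above 0 (median -0.0093 against -0.22). Both sets were chosen by their effect without BDNF, which is also a term of the difference of effects. That choice alone enlarges their medians without BDNF and the count of 80 called differences, so neither tests an influence of BDNF. Bsn, which encodes the active zone scaffold bassoon, had the smallest p for the difference. It was at 271 and 290 CPM in Control, 397 and 392 CPM in H2BE, 473 and 437 CPM in BDNF and 416 and 381 CPM in H2BE+BDNF. All 3 other groups were above Control, and the effects differed by -0.69 (SE 0.08, edgeR adjusted p = 0.00678).

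**Figure D4:**
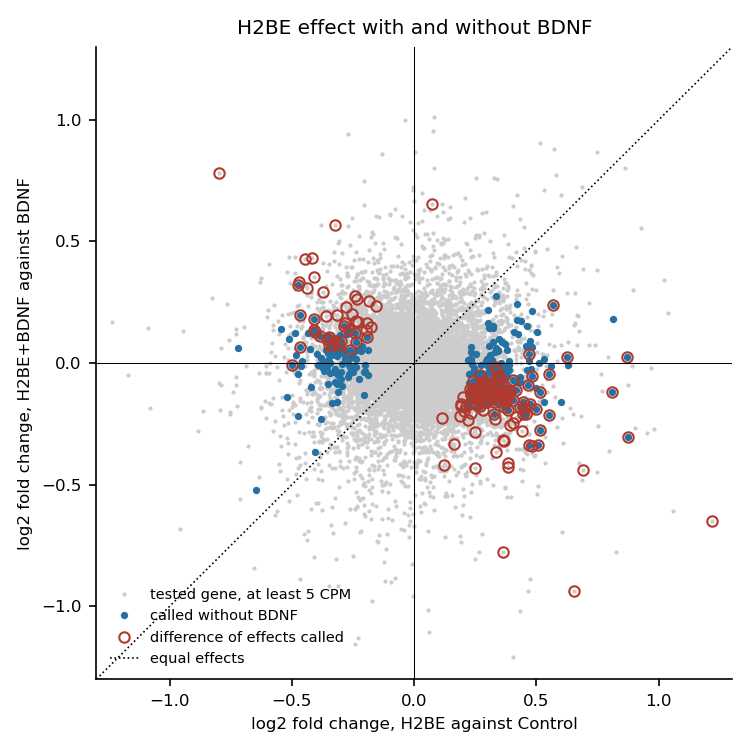
Log2 fold change of H2BE+BDNF against BDNF (vertical axis) against that of H2BE against Control (horizontal axis) for 10826 genes with at least 5 CPM. The axes stop at 1.3, which leaves out 5 genes. Blue points were called without BDNF, and the 155 red rings mark a called difference, mostly right of and below the dotted line of equal effects.

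The largest called differences with a lower effect in BDNF-treated neurons were Trpc5 (-1.87), Slc7a11 (-1.59), Dyrk1b (-1.18), Sv2c (-1.14) and Epha6 (-1.13). Trpc5, a cation channel of growth cones and dendrites, was at 2.25 and 3.67 CPM in Control and 5.66 and 7.14 CPM in H2BE, and at 8.15 and 12.2 CPM in BDNF and 5.86 and 7.21 CPM in H2BE+BDNF. The synaptic vesicle protein gene Sv2c was at 27.9 and 39.96 CPM in BDNF and at 23.6 and 15.6 CPM in H2BE+BDNF, against 32.9 and 26.2 CPM in Control and 36.5 and 42.1 CPM in H2BE. In both genes H2BE lay above Control while H2BE+BDNF lay below BDNF.

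With a higher effect in BDNF-treated neurons the largest were Mettl15 (1.58), Eef1akmt2 (0.89), Frg1 (0.87), Mief2 (0.85) and Wdr83os (0.80). Mettl15, a methyltransferase of mitochondrial ribosomal RNA, was at 5.19 and 5.59 CPM in Control and 2.97 and 3.18 CPM in H2BE, and at 3.43 and 3.499 CPM in BDNF and 5.505 and 6.49 CPM in H2BE+BDNF. Wdr83os, a small membrane protein gene of the endoplasmic reticulum, was at 26.4 and 27.8 CPM in Control, 17.99 and 21.2 CPM in H2BE, 20.6 and 20.4 CPM in BDNF and 25.2 and 26.5 CPM in H2BE+BDNF. Control and H2BE+BDNF were the higher groups in both genes.

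Transcript length moved with these differences. The median transcript of the 111 genes with a lower effect was 9826 bases long and that of the 44 with a higher effect 1204, beside 3483 over all tested genes. In the tenth of genes with the shortest transcripts the median effect of H2BE was 0.04 with BDNF and -0.16 without, and in the tenth with the longest it was -0.07 and 0.14. Once counts were corrected for the length and GC content of transcripts, 5 genes were called for the difference and 19 for H2BE against Control, while 3 were called with BDNF (H2bc21, Cntn6 and Sst). The genes called for the difference after correction were ND4, Xkr4, Shc3, Serbp1 and ND5. Among the largest named differences, those of Trpc5 (-1.85), Slc7a11 (-1.45), Dyrk1b (-1.18), Epha6 (-1.12) and Mettl15 (1.42) kept most of their size after correction although their calls were lost (edgeR adjusted p 0.15 to 0.22). Those of Bsn (-0.69 before, -0.29 after), Grin2b (-0.49 before, -0.08 after), Ntrk2 (-0.34 before, -0.14 after) and Psma1 (0.39 before, 0.18 after) shrank. Smaller too were those of Ank2 (-0.50 before, -0.18 after), Shank1 (-0.56 before, -0.27 after) and Cacna1a (-0.45 before, -0.23 after). Why the calls were lost was not tested.

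**Figure D5:**
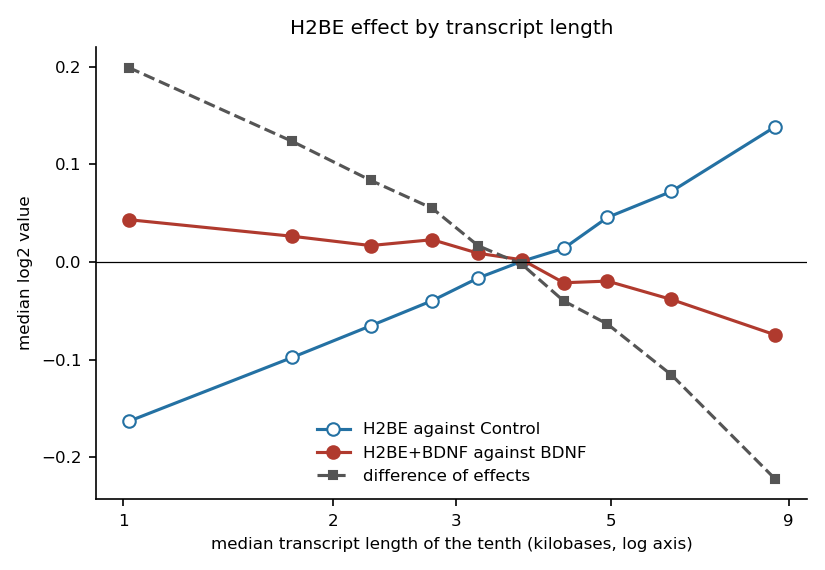
Median log2 effect of H2BE (vertical axis) in 10 equal bins of the tested genes by transcript length (horizontal axis, kilobases, log axis), with BDNF (filled), without BDNF (open) and their difference (dashed). The medians run from 0.04 to -0.07 with BDNF and from -0.16 to 0.14 without it.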

How the data were processed

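PolyA RNA from primary cortical neurons was sequenced as 10 libraries in 4 groups. The authors deposited raw counts per Ensembl gene, and a second deposited table with signal values, the counts divided by 1 size factor per library, which was used only for gene symbols. Per the submitters' processing notes, mm10, SAMtools, DESeq2 and deepTools were used, with no versions. The sources used here do not name the aligner, the counter or the strand setting. BDNF and Control replicate 3 hold subsets of the counts of replicate 1 and were left out, which left 8 libraries, 2 per group.

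The edgeR function filterByExpr (minimum count 10, minimum total 15) kept 13452 of 48526 genes, and 21822 had no counts. Libraries were scaled by TMM, and 1 quasi-likelihood fit of the 4 group means (edgeR 4.0.16, limma 3.58.1, R 4.3.3) gave H2BE+BDNF against BDNF, H2BE against Control and their difference. All 8 libraries share 1 estimate of the spread. The threshold was 0.05 for p adjusted by Benjamini-Hochberg over all tested genes. CPM in the text are counts relative to the library total scaled by TMM. Intervals are 95% and, like the limit of 3 counts, cover only the error the model or the counting sees. GENCODE M21 gave coordinates and transcript lengths (99.68% of tested genes), and no other annotated gene overlaps H2bc21, Cntn6 or Cort.

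Named genes are H2bc21, called genes (mean 5 CPM or more in a group, no overlap between the groups, no provisional symbol; up to 15 in each direction), up to 4 members of each of 36 gene lists with the smallest p, and the 5 largest called differences in each direction. Not every gene that the rule names is reported here. Slc7a1, Clic4, Bsn and the genes called after correction fall outside that rule and were chosen after their values were seen. The members, lists and rules were chosen with earlier results of these data known. Alternatives used DESeq2 1.42.0, other filters, libraries and depths, and a lowess correction (span 0.3) for length and GC. Scripts were tested on simulated data.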

Additional observations from a re-analysis of the deposited data

Results flagged for a closer look

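The difference between the H2BE effects with and without BDNF was called at 155 genes, and the genes named here stand out by that test (edgeR, adjusted p under 0.05). All values are log2 effects with BDNF minus without. In the neurotrophin, amino acid and stress genes they were -0.34 for Ntrk2, -0.65 for Shc3, -0.50 for Slc7a1, -1.59 for Slc7a11 and -0.54 for Sesn2. In synaptic, channel and cytoskeletal genes they were -0.69 for Bsn, -0.49 for Grin2b, -0.56 for Shank1, -1.14 for Sv2c, -0.45 for Cacna1a, -0.50 for Ank2, -1.87 for Trpc5 and -1.13 for Epha6, and 0.58 for the adhesion gene Cntn6.

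In chromatin genes they were 0.80 for Dpy30, -0.52 for Hcfc1 and -0.61 for Ep300. In ribosomal, proteasome and mitochondrial genes they were 0.36 for Rpl7a, 0.39 for Psma1, 0.52 for Psma6 and -0.33 for ND4. The others were 1.58 for Mettl15, 0.89 for Eef1akmt2, 0.87 for Frg1, 0.85 for Mief2, 0.80 for Wdr83os and -1.18 for Dyrk1b. Of these only Shc3 and ND4 were also called after the correction for transcript length and GC content. Among the others, Trpc5 (-1.85), Dyrk1b (-1.18), Epha6 (-1.12), Mief2 (0.82) and Mettl15 (1.42) kept most of their size. Smaller by over 1.5 times were Grin2b (-0.08), Ntrk2 (-0.14), Psma1 (0.18), Bsn (-0.29), Ank2 (-0.18) and Shank1 (-0.27). The same held for Cacna1a (-0.23), Rpl7a (0.20), Psma6 (0.33), Hcfc1 (-0.32), Ep300 (-0.38) and Dpy30 (0.52).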

How the results depend on the processing

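H2bc21 was called in every setting run, and no named value changed sign where it had been called. In BDNF-treated neurons the count of called genes was 10 with DESeq2, 216 with no filter on low counts, 24 with all 10 libraries as replicates, and 1 each with replicates 2 and 3 alone and with the 4 BDNF libraries alone. Leaving out 1 library gave 1 to 764, the highest without BDNF replicate 1 (764) and 10 without BDNF replicate 2, where the remaining library is assumed to vary like the other groups. For H2BE against Control (287) it was 559 with no filter, 1611 with all 10 libraries, 19 after the length and GC correction, and 2 to 890 leaving out 1 library. For the difference of effects (155) it was 440 with no filter, 1169 with all 10 libraries, 349 with replicates 2 and 3 alone, 5 after the length and GC correction, 96 after thinning to the smallest library, and 0 to 897 leaving out 1 library. Leaving out Control replicate 1 or H2BE replicate 2 left 0 called differences.

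With the replicate number as a block, replicates 2 and 3 alone gave 48 calls with BDNF and 344 for the difference. The crossed pairing, added after seeing the data, gave 1 with BDNF and 222 for the difference. The correlation of the replicate 2 minus 3 deviations was -0.22 between BDNF and H2BE+BDNF and -0.20 to -0.33 over all 6 pairs of groups. In BDNF and Control, replicate 3 holds a subset of the counts of replicate 1. Pairs with these groups therefore cannot show whether same-numbered libraries deviate together. Between H2BE and H2BE+BDNF, where replicates 2 and 3 are distinct libraries, the correlation was -0.29. Summed over the groups, the replicate 2 minus 3 deviations had an SD of 0.282, against 0.573 if they were independent. The sum includes BDNF and Control, so it too cannot show whether same-numbered libraries deviate together. The sources used here do not say whether counts were adjusted by replicate before deposit, and the cause was not tested. Cntn6 lost its call in the 4 BDNF libraries alone (edgeR adjusted p = 0.38) and after thinning (0.11), and Cort in the same settings (0.38 and 0.12) and after the length and GC correction (0.0689). With 2 libraries a group, the median 95% half-width of a log2 fold change was 0.38 at 5 to 20 CPM and 0.13 over 100 CPM.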

Other observations

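Genes of the extracellular matrix nets around inhibitory neurons, and a peptide gene, differed between the BDNF libraries themselves. They were chosen after their values were seen. Acan, the proteoglycan aggrecan, was at 148 CPM in BDNF replicate 1 and 260 CPM in BDNF replicate 2, against 144 and 124 CPM in H2BE+BDNF. Hapln1, which links aggrecan to hyaluronan, was at 84.2 and 130 CPM against 73.8 and 55.9 CPM. The peptide gene Cck was at 44.6 and 92.1 CPM against 47.0 and 40.6 CPM. In Acan and Cck BDNF replicate 1 lay close to the H2BE+BDNF libraries, and BDNF replicate 2 alone lay high. Lars2, a mitochondrial leucyl-tRNA synthetase, was lower in BDNF replicate 2 (195 CPM) than in BDNF replicate 1 (330 CPM), H2BE+BDNF (346 and 440 CPM) or any unstimulated library. Of the 8 libraries BDNF replicate 2 also had the lowest level of Xist, a transcript of female cells (406 CPM, and 545 CPM in BDNF replicate 1). It had the highest level of the Y chromosome gene Ddx3y (54.8 CPM, and 40.8 CPM in BDNF replicate 1). The sex of the embryos behind each library was not tested.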
